A study of Mus musculus with 10 samples.

Results

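The Notch pathway genes examined here were 29 listed genes for ligands, receptors, processing enzymes, nuclear coactivators, targets and regulators. A peak of N6-methyladenosine (m6A), a methyl mark on adenosines of RNA, was counted for a gene if it shared 50% or more of the shorter of the peak and the gene's RefSeq span on GRCm38.p6. Of the strands with such peaks, the one with more immunoprecipitation (IP) reads was kept for each gene. This gave 42 of the 21195 peaks of the series, in 20 of the 29 genes. The list and the roles were chosen with earlier results of these data known.

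The cells were neural progenitors from the hypothalamus of E14.5 mouse embryos, homozygous for a floxed Mettl14 allele and grown with FGF2 and EGF at 20 ng/ml each. Mettl14 is a subunit of the complex that writes m6A. Knockout cells had received lentivirus for EGFP and Cre recombinase, control cells lentivirus for EGFP alone, and EGFP-positive cells were sorted, so the groups share the floxed allele, the virus and the sort. The labels give 4 m6A IP libraries and 1 input library of knockout cells, and 4 IP libraries and 1 input library of control cells. They do not say whether the libraries came from separate cultures.

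The peak table had 1 IP and 1 input column and no column for a genotype or a library. Levels in knockout cells could therefore not be compared with control cells, and no value below has a replicate or an SD. Which libraries entered each column was not given in the sources used here. All read counts below are those of the authors' deposited table. The columns came to 72308582 IP and 26633390 input reads, with a median of 864 IP and 466 input reads per peak. Of genes that mark neural progenitors, 4 of 9 had a peak (Nes, Sox1, Sox2 and Pax6), as did 4 of 7 hypothalamic markers (Nkx2-1, Lhx2, Six3 and Tbx3). For other cell types it was 3 of 5 neuronal, 2 of 4 astrocyte, 2 of 4 oligodendrocyte lineage, 1 of 5 microglial and 1 of 4 endothelial and pericyte markers. A peak needs RNA that is both present and enriched, so these counts are not expression levels. Over all protein-coding genes 44.2% had a peak, close to the share of the progenitor markers, so the counts do not set these markers apart. In such bulk samples, fewer cells of a type and less RNA per cell cannot be told apart.

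Notch is a receptor that signals by being cut. A ligand of the Delta or Jagged type on a neighbouring cell pulls on the receptor, a protease of the ADAM family trims it outside the membrane, and gamma-secretase then frees its intracellular part. That part joins the DNA-binding protein RBPJ and a Mastermind coactivator in the nucleus and turns on genes such as those of the Hes and Hey families, repressors that keep neural progenitors from becoming neurons.

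A peak was found in 20 of the 29 genes (69.0%), against 44.2% of 21900 RefSeq protein-coding genes by the same rule. Longer genes offer more room for a peak. The median span was 36.2 kb for the 20 genes with a peak and 16.3 kb for the other 9. It was 17.1 kb over all protein-coding genes, with or without a peak, which is not a like group to either. The part of span in the count was not tested. All 3 receptors and all 4 genes for RBPJ and its coactivators had a peak, although the peak of Notch3 also lay over the noncoding RNA gene Gm38585, and with peaks meeting the rule for a single gene 19 of the 29 genes remained, without Notch3. So did 4 of 5 ligands, 4 of 7 processing genes, 3 of 6 targets and 2 of 4 regulators. The genes without one were the ligand Dll3, the fringe glycosyltransferases Lfng and Mfng, the ubiquitin ligase Mib1, the targets Hes5, Hey2 and Heyl, and the Notch antagonists Numb and Numbl. Whether their RNA was absent or present without enrichment cannot be read from a list of peaks.

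Enrichment was measured in 2 ways. One is the ratio of IP to input reads. It carries no correction for depth, and so depletion cannot be read from a ratio under 1. Its 95% interval is an exact Clopper-Pearson interval, which covers counting error alone because PCR copies carry no molecular identifier and are not independent molecules. The other is the log2 fold change column of the authors' deposited table, called log2 fold enrichment below and taken to be IP over input. By it the 42 peaks had a median of 2.97, against 3.06 for all 21195 peaks in the authors' deposited table. Of the 42 peaks, 6 (14.3%) had at least 4, against 19.8% of all peaks in the authors' deposited table. Fewer IP than input reads were found in 4 (9.52%), against 11.3% of all peaks. By summed reads the ratio was 2.72 for the 42 peaks and 2.71 for all peaks. Nrarp weighed on this sum, which gave 3.03 without it and 3.05 with Nrarp and the other genes on the strand of the RefSeq promoter table. Taking the strongest peak of each gene, the median was 3.14 for the 20 genes and 3.51 for all protein-coding genes with a peak in the authors' deposited table. Whether the group differed from all peaks was not tested.

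**Figure D1:**
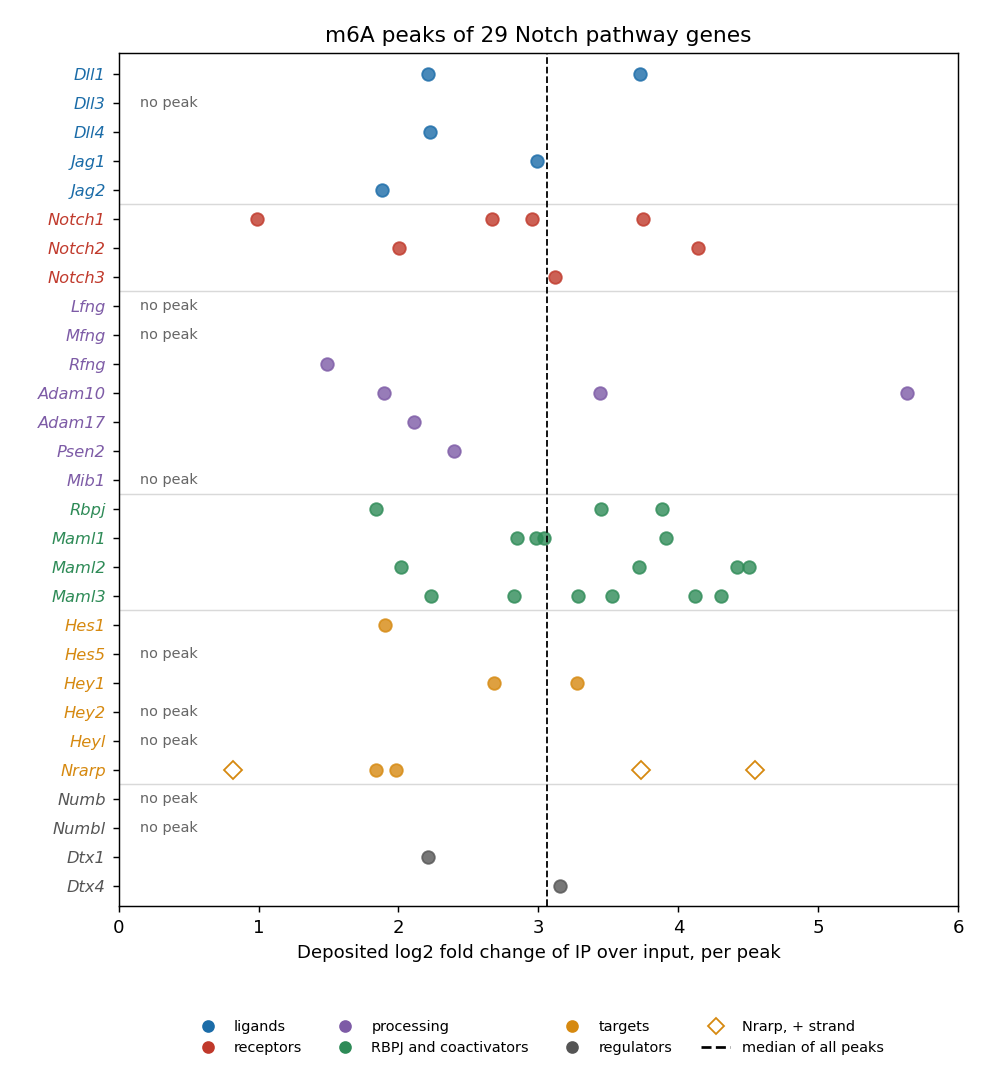
Each filled point is 1 m6A peak, placed by the log2 fold enrichment of IP over input in the authors' deposited table, with genes grouped by role and the dashed line at the median of all peaks (3.06). Open diamonds are the plus-strand peaks of Nrarp, which the strand rule left out. The 17 peaks of RBPJ and the coactivators reach from 1.84 to 4.50, and the 1 peak past 5 belongs to Adam10.

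The receptors differed in how their m6A was laid out. Notch2 had the most concentrated signal. A peak of 125 bases at chr3:98146058-98146182, on the plus strand 4185 bases before the 3' end of the gene, had 38396 IP and 6727 input reads. This was a ratio of 5.71 (95% interval 5.56 to 5.86), with a log2 fold enrichment of 4.14 in the authors' deposited table. It held 98.4% of the gene's IP reads in peaks. The second Notch2 peak, of 3750 bases and ending 10 bases before the gene's end, had 643 IP and 492 input reads and a ratio of 1.31 (95% interval 1.16 to 1.47). Both Notch2 peaks carried a second gene identifier in the deposited table, so their reads are not tied to 1 gene there.

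Notch1, the receptor best known in neural progenitors, had 4 peaks on the minus strand, all in the last 10% of its 45.9 kb span. The last 2 of them also met the overlap rule for the noncoding RNA gene 0610009E02Rik. The one with the most reads, which is among these 2 and is 700 bases wide and 376 bases from the 3' end, had 4834 IP and 1737 input reads (ratio 2.78, 95% interval 2.63 to 2.94). A peak of 200 bases located 1401 bases from the 3' end had 1522 IP and 557 input reads, and its ratio of 2.73 (95% interval 2.48 to 3.02) overlapped that of the first. In the authors' deposited table these 2 stood apart, at log2 fold enrichments of 2.96 and 3.74. The last 150-base peak, 51 bases from the end, had 487 IP and 407 input reads, and the outermost upstream peak had 289 IP and 318 input reads. In the authors' deposited table that upstream peak was the weakest of the 42 (log2 fold enrichment 0.99). Its ratio, not corrected for depth, was 0.909 (95% interval 0.772 to 1.07). Notch3 had a single broad peak of 9993 bases on the minus strand, with 2125 IP and 808 input reads (ratio 2.63, 95% interval 2.42 to 2.86) and a log2 fold enrichment of 3.12 in the authors' deposited table.

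Among the ligands, Dll1, the main Delta ligand of the embryonic nervous system, had the highest enrichment. Its 3' peak, chr17:15367404-15368893 on the minus strand, ended 50 bases from the gene's end and had 8956 IP and 2200 input reads, a ratio of 4.07 (95% interval 3.88 to 4.27). Its other peak, 1298 bases from the 5' end, had 3301 IP and 1122 input reads, a ratio of 2.94 (95% interval 2.75 to 3.15). In the authors' deposited table the gap was wider, with log2 fold enrichments of 3.72 and 2.21.

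The other ligands had 1 peak each, toward the 3' end. Jag1 had 1676 IP and 706 input reads (ratio 2.37, 95% interval 2.17 to 2.60). Dll4 had 2198 IP and 1251 input reads (ratio 1.76, 95% interval 1.64 to 1.88), and Jag2 had 1094 IP and 832 input reads (ratio 1.31, 95% interval 1.20 to 1.44). The order of these 3 by ratio was Jag1, Dll4, Jag2. Their intervals, which cover counting error alone, did not overlap. The authors' deposited table gave the same order, at log2 fold enrichments of 2.99, 2.23 and 1.88. All 3 values lay below the median of all peaks.

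**Figure D2:**
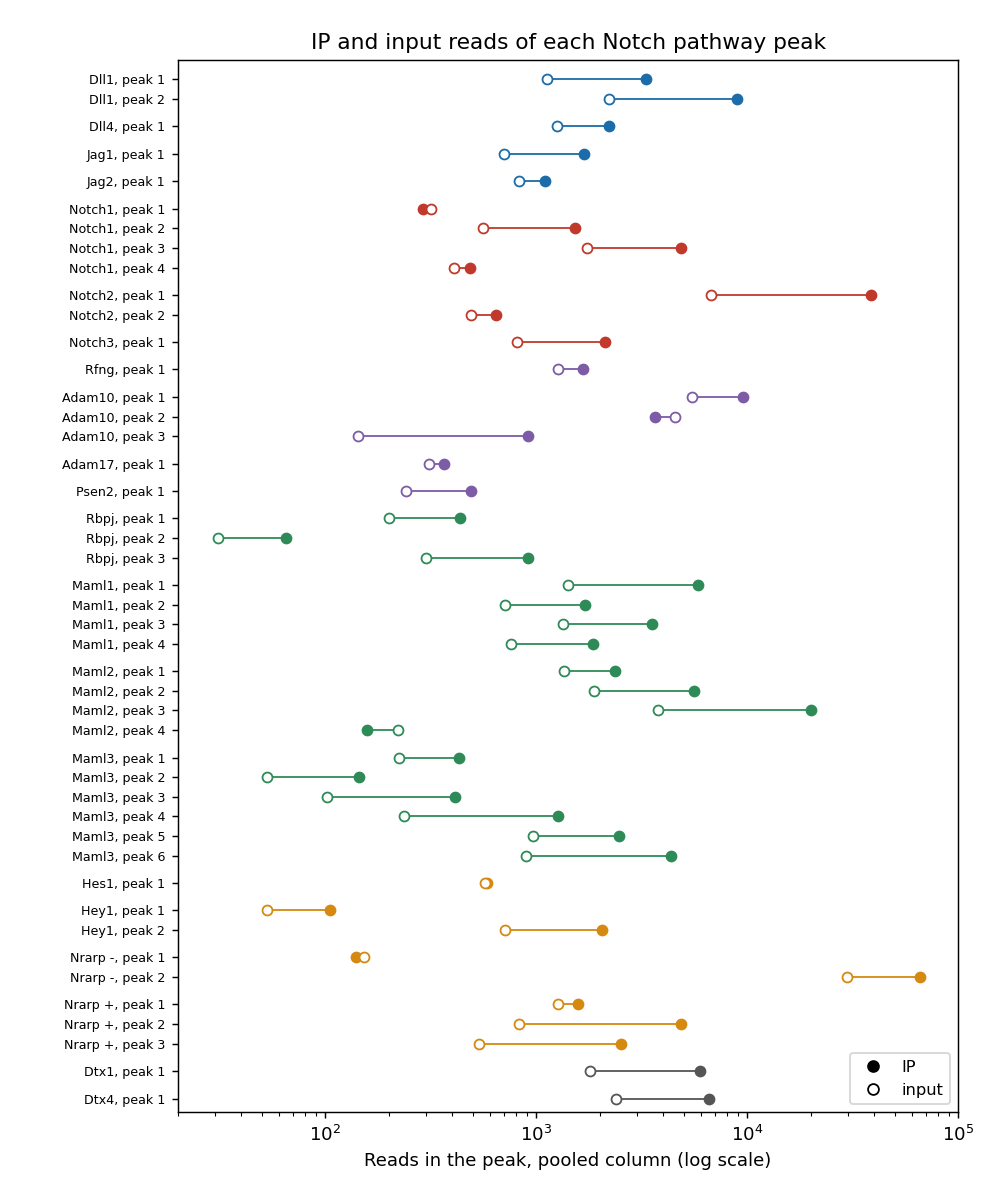
Filled points are IP reads and open points input reads of each peak in the pooled columns, on a log scale, with peaks numbered from the 5' end of the peaks' strand within a gene. Filled points lie left of open ones in 4 of the 42 peaks, 1 each in Notch1, Adam10, Maml2 and the minus strand of Nrarp.

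The processing genes held the strongest and several of the weaker peaks of the pathway. Adam10, the protease that makes the ligand-dependent cut, had 3 peaks on the plus strand. The peak at its very 3' end, chr9:70779592-70780229, had 910 IP and 143 input reads, a ratio of 6.36 (95% interval 5.33 to 7.64). Its log2 fold enrichment of 5.63 in the authors' deposited table put it at the 99.6 percentile of all peaks. This strong peak held only 6.46% of the IP reads in Adam10 peaks. A peak that began 178 bases after the gene's start and spanned 24.2 kb had 9540 IP and 5447 input reads (ratio 1.75, 95% interval 1.69 to 1.81). Between them, 1538 bases from the 3' end, lay a peak with 3636 IP and 4540 input reads, a ratio of 0.801 (95% interval 0.766 to 0.837), still listed at a log2 fold enrichment of 1.90 in the authors' deposited table.

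The remaining processing genes had 1 peak each in the last 10% of the span. Psen2, a presenilin subunit of gamma-secretase, had 491 IP and 241 input reads (ratio 2.04, 95% interval 1.74 to 2.39). Rfng, the fringe glycosyltransferase that had a peak, had 1663 IP and 1271 input reads, and Adam17 had 364 IP and 310 input reads. The ratios of Rfng and Adam17, 1.31 and 1.17, had overlapping intervals (1.22 to 1.41 and 1.01 to 1.37). In the authors' deposited table the log2 fold enrichments of Psen2, Adam17 and Rfng were 2.40, 2.11 and 1.49, each under the median of all peaks.

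RBPJ and the Mastermind coactivators carried the most peaks, 17 of the 42, with a median log2 fold enrichment of 3.44 in the authors' deposited table. This was the highest of the 6 roles, whose other medians were 2.96 for receptors, 2.68 for regulators, 2.25 for processing genes, 2.23 for ligands and 1.98 for targets in the authors' deposited table. With Nrarp counted on the plus strand the target median was 2.98 in place of 1.98, just over that of the receptors. By the ratio of reads other roles led. The median ratio was 3.04 for regulators, 2.65 for RBPJ and the coactivators and 2.63 for receptors. By summed reads the receptors stood highest, at 4.37 against 3.56 for RBPJ and the coactivators. Roles hold between 2 and 17 peaks, and the differences between them were not tested.

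Maml2 had 4 peaks on the plus strand of a 413 kb span. A peak of 5486 bases, ending 1743 bases before the 3' end, had 20021 IP and 3784 input reads, 71.3% of the gene's IP reads in peaks (ratio 5.29, 95% interval 5.11 to 5.48). A peak of 750 bases inside the gene, 88774 bases before the 3' end, had 5562 IP and 1871 input reads and a lower ratio of 2.97 (95% interval 2.82 to 3.13). In the authors' deposited table the order was turned round, with 4.50 for the inner peak and 4.42 for the 3' peak. The last 148-base peak had 157 IP and 222 input reads, with a ratio of 0.707, and a peak 1546 bases from the 5' end had 2353 IP and 1349 input reads. All 4 carried a second gene identifier in the deposited table.

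Maml3 had the most peaks of any member, 6 on the minus strand, and 4 of them lay above the median of all peaks in the authors' deposited table. The ratio was highest in a 575-base peak inside the gene (chr3:51855564-51856138), with 1262 IP and 236 input reads (5.35, 95% interval 4.65 to 6.17), and in the peak 362 bases from the 3' end, with 4367 IP and 893 input reads (4.89, 95% interval 4.55 to 5.26). These intervals overlapped. The log2 fold enrichments in the authors' deposited table were 4.31 and 4.12. A short peak next to the inner one had 412 IP and 102 input reads, and a second 3' peak had 2466 IP and 966 input reads (ratio 2.55, 95% interval 2.37 to 2.75). Another peak measured 247 kb between its outer ends, on only 145 IP and 53 input reads. Whether it was split into parts was not examined, so its place in the gene is not resolved. The sixth, at the 5' end, had 430 IP and 224 input reads.

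The 4 Maml1 peaks were more alike. Its most enriched peak, 26.2 kb wide, had 5821 IP and 1419 input reads (ratio 4.10, 95% interval 3.87 to 4.35) and a log2 fold enrichment of 3.91 in the authors' deposited table. Its remaining 3 had 1704, 3539 and 1856 IP and 711, 1337 and 758 input reads from 5' to 3', and their intervals all overlapped, between 2.19 and 2.82. Without peaks over 10000 bases, the highest Maml1 value was 3.04 in the authors' deposited table.

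Rbpj had fewer reads than the Mastermind genes. Its 3' peak, chr5:53653663-53654287 on the plus strand, had 910 IP and 300 input reads (ratio 3.03, 95% interval 2.66 to 3.47) and a log2 fold enrichment of 3.88 in the authors' deposited table. A 275-base peak at an annotated start site had 435 IP and 200 input reads (ratio 2.17, 95% interval 1.84 to 2.58), at 1.84 in the authors' deposited table. The third, 13.4 kb wide, had 65 IP and 31 input reads, the fewest of the 42 peaks, and its interval (1.35 to 3.33) overlapped both others.

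Of the targets Hey1 and Hes1, Hey1 had the higher ratio and Hes1 had nearly equal IP and input reads. Hes1, the repressor whose pulses maintain progenitors, had 585 IP and 571 input reads in a peak at the end of the gene. The ratio was 1.02 (95% interval 0.911 to 1.15). Without a correction for depth, a ratio near 1 does not show that enrichment was absent. The log2 fold enrichment of this Hes1 peak was 1.90 in the authors' deposited table. Hey1 had 2054 IP and 712 input reads in its main peak, 825 bases from the 3' end (ratio 2.88, 95% interval 2.65 to 3.15). Its smaller peak had 105 IP and 53 input reads (1.98, 95% interval 1.41 to 2.81). The log2 fold enrichments of these Hey1 peaks were 3.28 and 2.68 in the authors' deposited table.

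For Nrarp, a target that feeds back to restrain Notch, the strand decided the value. The rule chose the minus strand, with 65494 IP and 29722 input reads in a peak of 1383 bases and 139 IP and 152 input reads in another. RefSeq places Nrarp on the plus strand, where 3 peaks had 1580, 4828 and 2512 IP and 1265, 825 and 535 input reads. Over the gene the minus strand had 7.36 times the IP reads and 11.4 times the input reads of the plus strand. The ratio was lower on the minus strand, at 2.20 (95% interval 2.17 to 2.23), against 3.40 (95% interval 3.25 to 3.55) on the plus strand. In the authors' deposited table the minus-strand peaks had log2 fold enrichments of 1.84 and 1.98. From 5' to 3' the plus-strand peaks had 0.82, 3.73 and 4.55 in the authors' deposited table, so the one nearest the 3' end stood highest. The minus-strand peaks carried another gene identifier than the plus-strand ones. No other RefSeq gene met the overlap rule for any of these peaks, and smaller overlaps were not examined.

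The chosen strand was that of the RefSeq promoter table for 16 of the 17 members with a peak that this table lists, and Nrarp was the exception. Over all such protein-coding genes the chosen strand was the other one in 5.87%. Whether the authors' counting used strand was not given in the sources used here. At Nrarp the large minus-strand peak shared 877 bases with a plus-strand peak of 1580 IP reads. All 400 bases of another plus-strand peak, with 2512 IP reads, lay within a minus-strand peak with 139. At Notch1 the minus-strand peak of 700 bases and 4834 IP reads lay within a plus-strand peak with 112. Overlapping peaks of opposite strands thus did not hold equal reads.

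Both regulators with a peak encode Deltex ubiquitin ligases, which act on Notch in the cytoplasm. Dtx4 had a single peak of 16.1 kb with 6594 IP and 2391 input reads (ratio 2.76, 95% interval 2.63 to 2.89). Dtx1 had a single peak, 210 bases from its 5' end, with 5967 IP and 1797 input reads (ratio 3.32, 95% interval 3.15 to 3.50). By ratio Dtx1 was thus the higher, and by the authors' deposited table the lower, with log2 fold enrichments of 2.21 for Dtx1 and 3.16 for Dtx4.

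Many Notch pathway peaks lay near the 3' end of their gene, and whether more did so than over the series was not tested. Of the 42 midpoints, 22 (52.4%) fell in the last 10% of the gene span, against 36.9% over peaks of protein-coding genes, and 4 (9.52%) in the first 10%, against 9.35%. The 22 peaks came from 14 of the 20 genes. They were 6 of 7 receptor peaks, 5 of 6 processing peaks, 3 of 5 ligand peaks, 7 of 17 coactivator peaks, 1 of 5 target peaks and none of 2 regulator peaks. Nrarp entered these counts on the minus strand, so its 5' and 3' ends were swapped against RefSeq. With the strand of the promoter table, 23 of 43 midpoints fell in the last 10% and 3 in the first 10%. Of the target peaks, 2 of 6 then lay in the last 10%. Spans include introns, and peaks of a gene are not independent of each other. Of the 42 peaks, 5 (11.9%) spanned over 10000 bases, against 13.0% of all peaks. Of the 20 genes, 10 had several peaks, against 50.6% of protein-coding genes with a peak. The strongest peak of these 10 genes in the authors' deposited table was the one nearest the 3' end in 4 of them (Dll1, Adam10, Rbpj and Hey1), against 44.8% of such genes over the series.

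**Figure D3:**
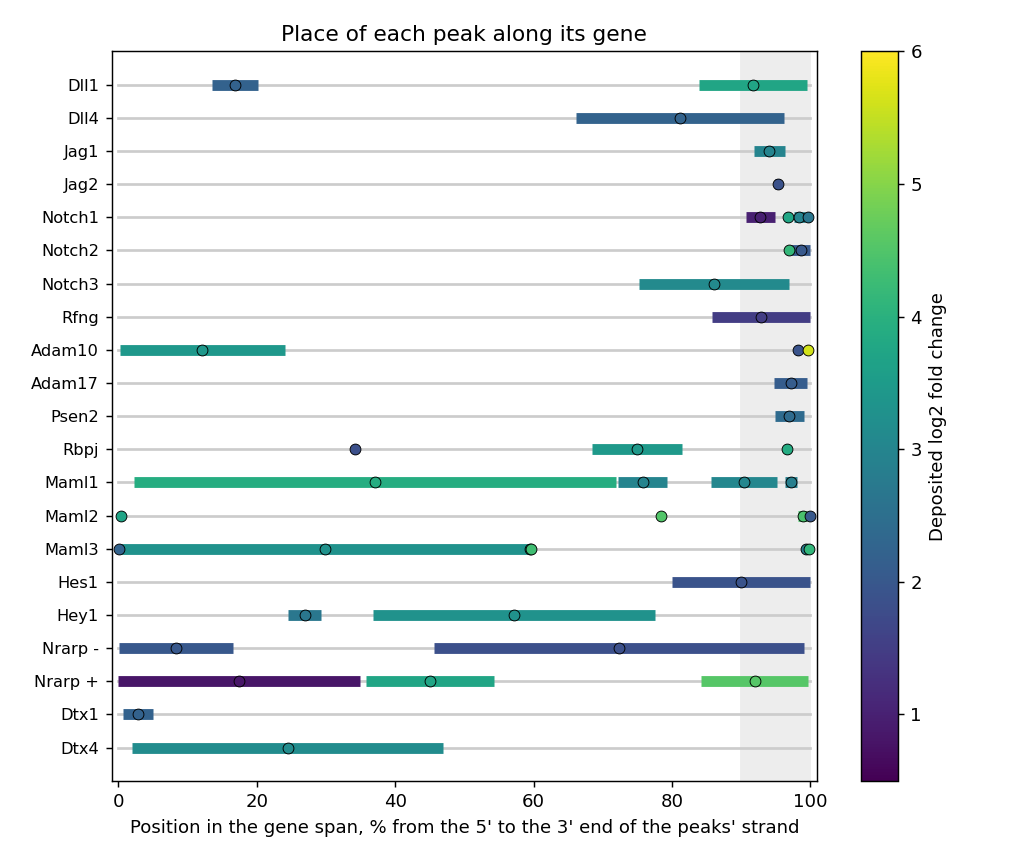
Each line is a gene span drawn from the 5' to the 3' end of the peaks' strand, with bars for the peaks, points at their midpoints and colour for the log2 fold enrichment in the authors' deposited table. The grey band marks the last 10%, which holds 22 of the 42 midpoints, including all 4 of Notch1 and both of Notch2.

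A few peaks reached an annotated start site, where RefSeq sequence was at hand. The promoter table, with 250 bases before and 50 after a gene's start on GRCm38.p6, lists 23 of the 29 genes. Peaks on the gene's strand covered part or all of the 50 transcribed bases of Rbpj, Maml1, Maml3, Nrarp and Dtx1. The consensus that the m6A writer is known to prefer was searched there as AAC or GAC with A, G or T before it and A, C or T after it, on the transcript strand. A match lay in the covered bases of 3 of these 5 genes, 1 in each and so with no overlap. In Rbpj and Maml3 all 50 bases were covered and held none. The 3 with a match are shown, 5' to 3', because the match and its surroundings could be read, with the match in capitals. The Nrarp stretch lies under a plus-strand peak that is not among the 42.
Maml1, chr11:50292287-50292308, minus strand: agcggcgcggaAAACAatgggg
Nrarp, chr2:25180758-25180787, plus strand: GAACTattttgcaaagggacgcgggtggag
Dtx1, chr5:120711620-120711649, minus strand: gacgcgtccgcgcgccaGGACTactgcgtc
The Dtx1 peak held GGACT, the Nrarp peak GAACT at the very start of the gene, and the wide Maml1 peak AAACA. Over all 32851 windows of the table, 54.4% held a match in the 50 transcribed bases, and 80.4% did on either strand, so a match is common. The peaks covered only 22 of these bases in Maml1 and 38 in Dtx1. The 3 of 5 genes and the 54.4% thus rest on unlike lengths. The Maml1 peak had a log2 fold enrichment of 3.91 in the authors' deposited table, above the median of all peaks, and those of Dtx1 and Nrarp, at 2.21 and 0.82, lay under it. These values belong to whole peaks, 26.2 kb wide for Maml1, and not to the bases around a match.

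The 2 measures of enrichment did not rank the Notch pathway peaks alike. The log2 fold enrichment of the authors' deposited table exceeded the log2 ratio of reads (pseudocount 0.5) by 0.48 in the Dtx1 peak and by 2.96 in the 3' peak of Adam10, the ends of the range over the 42 peaks. The median of this difference was 1.72 over the 42 peaks and 1.88 over all peaks. The Dtx1 peak was at the 68.0 percentile of all peaks by ratio and at the 19.3 percentile by log2 fold enrichment in the authors' deposited table. The 5' peak of Maml2 went the other way, at the 35.2 percentile by ratio and the 71.7 percentile by log2 fold enrichment in the authors' deposited table. Of the 10 genes with several peaks, 5 kept the same order of peaks by both measures (Dll1, Notch2, Adam10, Maml3 and Hey1). How the deposited values were normalized was not given in the sources used here.

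**Figure D4:**
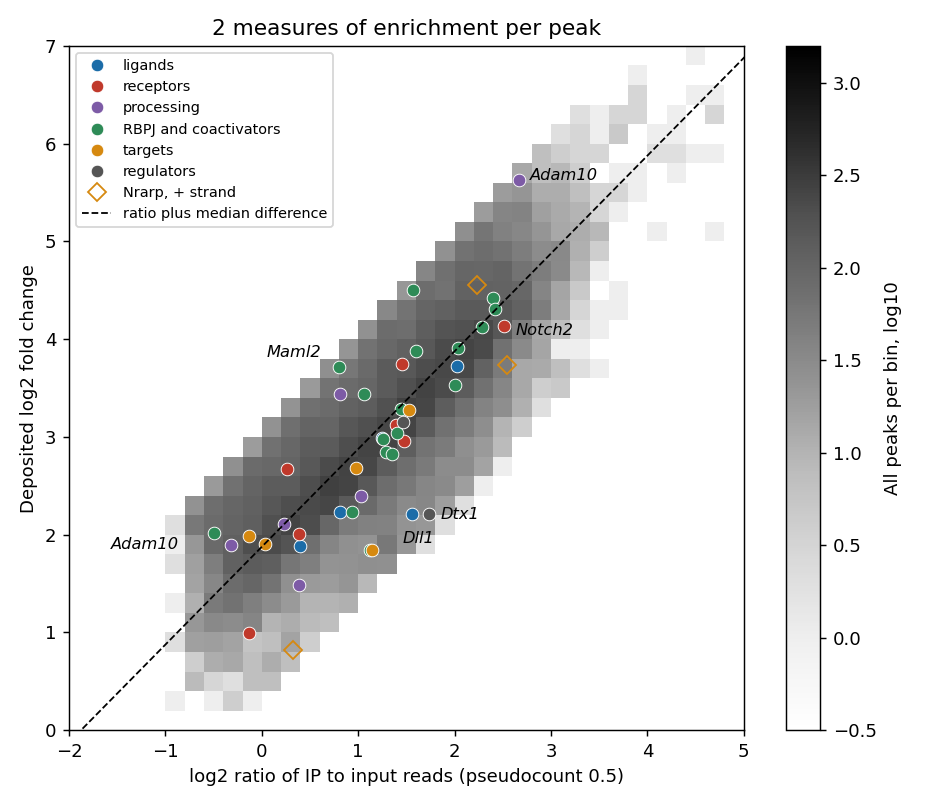
Log2 fold enrichment of each peak in the authors' deposited table is plotted against its log2 ratio of IP to input reads, for Notch pathway peaks (coloured by role) over a grey count of all peaks, and the dashed line adds the median difference of 1.88 to the ratio. Dtx1 and the 5' peak of Dll1 lie far below the line, and the 5' peak of Maml2 far above it.

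Other genes of the pathway, 40 from a second list, showed a similar picture. A peak was found in 26 of them (65.0%), and their 45 peaks had a median log2 fold enrichment of 2.87 in the authors' deposited table. The highest values there were 4.98 for Cir1 and 4.63 for Spen, corepressors of RBPJ, 4.39 for Snw1, an RBPJ-binding cofactor, and 4.31 for the corepressor Ncor1 in the authors' deposited table. The strand chosen for Cir1 and Ncor1 was not that of the promoter table, and whether these reads belong to them was not tested. The Ncor1 peak had only 175 IP and 31 input reads, 1.54% of the IP reads in peaks counted for Ncor1. It also met the overlap rule for the gene Ttc19, as the Spen peak did for Gm4123. The Snw1 peak had 13646 IP and 4374 input reads, and the table gave the same 2 counts for a second Snw1 peak. Fbxw7, a ubiquitin ligase for cleaved Notch, counted only through a peak of 1266 kb on the other strand that covered many genes.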

How the data were processed

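Bcl2fastq 2.17.1.14, Trimmomatic 0.32 and STAR 2.5.2a, and the builds GRCm38.p6 and GRCh38.p13, are named in the submitters' processing notes without a role. The peak caller and counter were not given in the sources used here. Per the file headers, the deposited counts are whole reads per peak, 1 IP and 1 input column. The log2 fold changes, p-values and adjusted p-values are the authors' deposited values, and the test behind them is not given. In each of 21195 rows the deposited score was the adjusted p-value turned to minus log2 (tolerance 1e-06), and the peak list held the same 21195 peaks.

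Intervals were joined to RefSeq gene spans (GRCm38.p6) in Python 3.11.15 with pandas 2.3.3, numpy 2.4.6 and scipy 1.17.1. The assignment was tested on simulated data with known answers. Each member was named, with its strongest peak and its peak with the most IP reads. The members, lists and roles were chosen with earlier results of these data known. The planned edgeR test of knockout against control was not run, because no column belongs to a library. The RefSeq promoter table (GRCm38.p6) gave strands and the sequence after gene starts, and no other sequence and no exon annotation was used here. Alternatives covered the overlap, the strand, multi-gene peaks, a higher fold change, input reads, peak width, the measure and the bin.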

Additional observations from a re-analysis of the deposited data

Results flagged for a closer look

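Reads in peaks that overlapped a Notch pathway gene but were not counted for it were looked at as data outside the main values, and each exceeded the 3 reads that a count of 0 allows. At Nrarp the plus strand, which the rule left out, held 8920 IP reads in 3 peaks. At Notch3 a plus-strand peak of 16.4 kb held 639 IP and 173 input reads and also overlapped the long noncoding RNA gene Gm38585. At Notch1 the plus strand held 318 IP reads in 2 short peaks, 206 in one and 112 in the other, which lay over the 3' end of Notch1 and in the long noncoding RNA gene 0610009E02Rik. Their log2 fold enrichments, 4.25 and 3.71 in the authors' deposited table, compare with 3.74 for the strongest minus-strand peak of Notch1. At Maml1 a plus-strand peak of 47.3 kb held 37 IP and 4 input reads (ratio 9.25, exact 95% interval 3.32 to 35.7) and also overlapped Ltc4s. At Hes1 a peak with 256 IP and 136 input reads lay across the gene's start, with 27.4% of its length inside the span, and was not counted. Its log2 fold enrichment of 2.54 in the authors' deposited table was above the 1.90 of the counted Hes1 peak. Of the 20 members with a peak, 4 had one on the other strand, against 13.5% of protein-coding genes with a peak.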

How the results depend on the processing

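The number of genes with a peak ranged from 17 (log2 fold enrichment of at least 2) to 20 over the alternatives, and the share of peaks in the last 10% from 46.9% (both strands) to 59.5% (peaks of at most 10000 bases). Shares over all genes and peaks under the same alternatives are not given here. These ranges therefore cannot be set against the 44.2% and 36.9% of the main rule. With both strands the targets had 8 peaks in place of 5, with peaks meeting the overlap rule for a single gene the receptors had 4 in place of 7, and with peaks of at most 10000 bases the regulators had 1 in place of 2. The median log2 fold enrichment ran from 2.82 to 3.22 in the authors' deposited table. Its difference from all peaks was -0.09 in the authors' deposited table, 0.04 by the log2 ratio of reads and -0.05 by the reads summed per gene, on the log2 scale. With at least 50 input reads the medians were 2.96 for the Notch pathway peaks left and 2.94 for all peaks, and with the strongest peak per gene 3.14 and 3.51, so the direction was not settled. Using the strand of the promoter table, an alternative chosen after seeing the data, gave 43 peaks in 20 genes. By reads, depth limits Rbpj's widest peak and the smaller Hey1 peak most. No paired analysis was possible because the columns carry no replicate number, and leaving out replicates was not run for the same reason.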
